A study of Mus musculus with 10 samples.

Results

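The Zfp zinc finger genes were taken as all genes of the expression table whose symbol starts with Zfp and a number, without Zfp36, Zfp36l1 and Zfp36l2, which act on mRNA decay. This rule gave 272 of 10767 genes, or 2.53% of the table. The rule used symbols only and no measured value. The table holds mRNA levels of CD8+ cDC1, the cross-presenting dendritic cells (DCs), sorted from spleens of young adult, sex- and age-matched Ppef2+/+ and Ppef2-/- mice that had received no treatment. Ppef2-/- mice carry a germline knock-out first allele with a gene trap between exons of Ppef2, a calcium-binding phosphatase gene, and descend from targeted JM8A3.N1 embryonic stem cells, with chimeras crossed to C57BL/6. There were 5 sorts, and each sort gave 1 library per genotype from 3 pooled mice, so that n = 5 libraries per genotype stands for pools and not for single animals.

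Zinc finger proteins of the C2H2 type hold a zinc ion between a pair of cysteines and a pair of histidines in each finger, and strings of fingers read DNA or RNA. Many of them carry a KRAB box in front of the fingers. This box binds Trim28, a scaffold that brings the histone methyltransferase Setdb1 and other silencing factors to DNA, and such genes are known for silencing of retroelements and for the upkeep of imprints. Other members without a KRAB box act as activators, bind RNA or work outside transcription. Zfp366 encodes DC-SCRIPT, a nuclear factor that marks dendritic cells.

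Fingers of this type are repeats, within a gene and between genes. They are shown because short reads can only be assigned where such repeats differ. The coding stretch of a finger with its linker is shown for 5 members that recur below. The stretches come from the GENCODE M21 transcripts on GRCm38, the assembly that UCSC calls mm10, and capitals mark the codons of the conserved linker that joins a finger to the next. Each stretch has 84 bases and lies in a coding exon.
Zfp772 repeat 1, chr7:7204025-7204108, minus strand: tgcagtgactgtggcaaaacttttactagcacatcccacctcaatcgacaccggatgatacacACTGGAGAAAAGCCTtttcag
Zfp772 repeat 2, chr7:7203941-7204024, minus strand: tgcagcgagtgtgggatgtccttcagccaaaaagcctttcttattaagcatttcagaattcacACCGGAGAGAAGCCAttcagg
Zfp113, chr5:138145297-138145380, minus strand: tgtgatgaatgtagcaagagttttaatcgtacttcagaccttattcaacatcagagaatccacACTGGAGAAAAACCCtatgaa
Zfp867, chr11:59464052-59464135, minus strand: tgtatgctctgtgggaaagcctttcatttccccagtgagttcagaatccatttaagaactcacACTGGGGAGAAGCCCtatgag
Zfp51, chr17:21463854-21463937, plus strand: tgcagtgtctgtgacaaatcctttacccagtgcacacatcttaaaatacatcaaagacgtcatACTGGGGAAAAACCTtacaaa
Zfp62, chr11:49215543-49215626, plus strand: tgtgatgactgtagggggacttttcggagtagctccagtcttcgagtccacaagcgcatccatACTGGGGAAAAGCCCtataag
Within Zfp62, 12 such units shared a median of 69.0% of their bases, and within Zfp113 7 units shared a median of 75%.

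Copies of a gene can be far closer than repeats of a finger. Zfp955a and Zfp955b on chromosome 17 were identical at 98.2% of 1635 aligned coding bases. A stretch of 75 bases with 3 differences, marked by capitals, shows how little a 50-base read has to separate both.
Zfp955a, chr17:33242230-33242304, minus strand: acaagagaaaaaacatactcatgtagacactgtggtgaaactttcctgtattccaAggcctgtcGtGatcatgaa
Zfp955b, chr17:33302411-33302485, plus strand: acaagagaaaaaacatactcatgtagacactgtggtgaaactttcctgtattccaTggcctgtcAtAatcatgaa
Among the 271 members with a gene in the annotation, the median share of 50-base words found in another gene was 0.509%. This share was under 1% in 170 members and at least 10% in 41. It reached at least 50% in 6 members, Zfp935, Zfp781, Zfp433, Zfp97, Zfp59 and Zfp955a, and the levels of these 6 are uncertain because the counting could split or drop their reads.

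Of the 272 members, 268 had a coding transcript in the annotation. Zfp783, Zfp862-ps and Zfp939 are annotated as pseudogenes, and Zfp91Cntf, a read-through of Zfp91 and Cntf, was not matched. Translated, 146 of the 268 members, or 54.5%, held a KRAB box and 9 a SCAN box. The median was 10 C2H2 fingers, with 12 in KRAB members and 7 in the others, and the highest number was 35. In 16 members no finger of this spacing was found, among them Zfp106, Zfp385a and Zfp638.

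The members lie in groups on the chromosomes. Chromosome 7 held 63 of the 271 located members, chromosome 17 held 36 and chromosome 13 held 31. In all, 178 members had another member within 1 Mb and formed 32 groups, and 93 members lay alone. Of the grouped members with a protein, 72.0% had a KRAB box (126 of 175), and of those that lay alone 21.5% (20 of 93). The largest group had 20 members on chromosome 13 from 67038596 to 67827002, 18 of them with a KRAB box.

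The values are normalized counts, that is, read counts scaled between libraries by DESeq2, with values under 1 set to 1. For each gene, the deposited values of the Ppef2+/+ and the Ppef2-/- library have 1 total that does not vary by sort, so the level of a sort is lost and the difference within it remains. The SD of a gene is therefore the same in both genotypes where no value was set to 1. This SD reflects only the differences within sorts and leaves out the spread between sorts. A mean ± SD of deposited values thus does not show the full spread between libraries. Whole reads could be calculated back for 9626 genes and 267 members, and reads times the value of 1 read give normalized counts with the sorts left in, called read-scale values here. Over the resolved genes the Ppef2+/+ libraries held 1396295 to 2273524 reads and the Ppef2-/- libraries 1508001 to 4409192. The Ppef2-/- library was the deeper one by 2.95, 2.31 and 1.60 times in sorts 1 to 3 and the shallower one in sorts 4 and 5, with ratios of 0.875 and 0.727. The targeted gene, Ppef2, had 816 reads in the 5 Ppef2+/+ libraries and 18 in the 5 Ppef2-/- libraries, in 2 of which it was at the minimum of 1. All 12 cDC1 markers were in the table, with a summed level between 54736 and 57560 normalized counts in every library. The T cell markers had 1 of 6 genes in the table, with Cd3e, Cd3d and Cd3g absent from it. The 6 pDC markers summed to 1262 to 1353 normalized counts in Ppef2+/+ and to 1131 to 1221 in Ppef2-/- libraries, with 2 genes at an unadjusted p under 0.05 by limma. This pDC sum was thus lower in Ppef2-/- in all 5 sorts. The 6 cDC2 markers summed to 908 to 1320 and 911 to 1323, and 7 of 8 markers of macrophages and monocytes to 1376 to 1513 and 1397 to 1535, with 1 gene at such a p. Of the markers of erythroid cells and platelets 3 of 7 were in the table, with sums of 106 to 180 and 123 to 197 and 1 gene at such a p. All these sums are of deposited values, so the range of 1 genotype mirrors that of the other. They cannot show how the part of other cells varied between sorts. No marker passed the adjusted threshold, and the part of other cells in the results below was not tested.

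Zfp genes were low in CD8+ cDC1. Their median level was 59.9 normalized counts over the 10 libraries, with quartiles at 30.5 and 135, while all genes had a median of 170 with quartiles at 61.3 and 425. Below the median of all genes lay 80.5% of the members. The highest 25% of all genes held 23 members (8.46%), and the lowest 10% held 54 (19.9%). Levels per kilobase (kb) of exons, which can be compared between genes, had the same order. On that scale the median was 14 normalized counts per kb in members and 37.9 in all genes, so the members' median was 36.9% of that of all genes.

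KRAB members were lower than the other members. Their median was 10.1 normalized counts per kb (n = 146), compared to 21.3 in members without this box (n = 122), and 95.9% and 66.4% of them lay below the median of all genes. The level per kb was also lower with more fingers. It had a median of 30.8 with at most 4 fingers, 17.3 with 5 to 9, 12 with 10 to 14 and 9.80 with 15 or more, and KRAB boxes made up 7.84, 47.1, 70.9 and 78.7% of these classes. Over the 268 members Spearman's rho between fingers and level per kb was -0.34, a description across genes that share their libraries and are not independent. The groups on the chromosomes followed this order as well, with a median of 48.7 normalized counts in members with a neighbour and 121 in members alone.

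**Figure D1:**
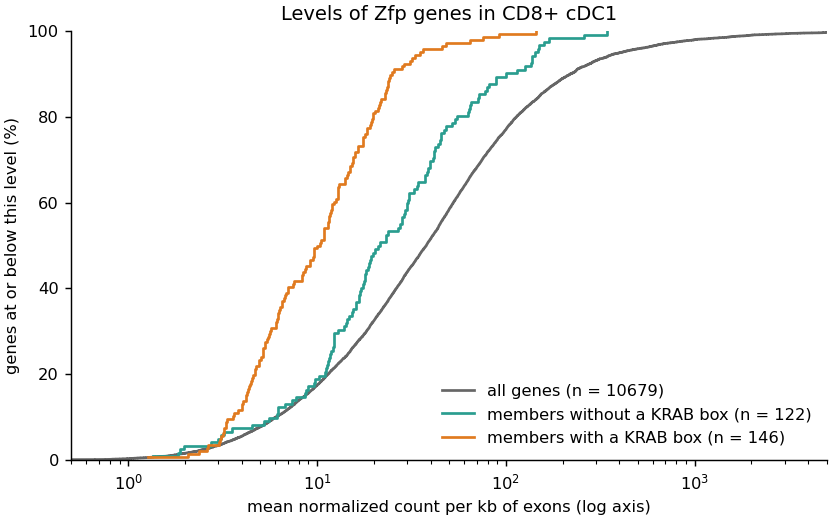
Cumulative share of genes (vertical axis, percent) by mean normalized count per kb of exons over 10 libraries (horizontal log axis), for all 10679 genes with an exon length, 122 members without a KRAB box and 146 members with one. The medians are 37.9, 21.3 and 10.1 normalized counts per kb, and the curve of the KRAB members lies leftmost over most of its length.

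Other zinc finger families were set beside the members. The 38 Zbtb genes, with a BTB domain in front of the fingers, had a median of 21.5 normalized counts per kb, and the 16 Zscan and Zkscan genes with an exon length had 17.3. The 14 Zc3h genes with an exon length, whose CCCH fingers bind RNA, had 57.9 and so lay above the median of all genes. Of these 3 families the SCAN genes were closest to the Zfp members.

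The most abundant member was Zfp106, which encodes an RNA-binding protein needed by motor neurons. Its normalized counts were 1819, 1763, 1817, 1754 and 1755 in Ppef2+/+ and 1702, 1759, 1704, 1768 and 1767 in Ppef2-/- libraries of sorts 1 to 5. Zfp366 came next with 1697, 1596, 1716, 1628 and 1662 in Ppef2+/+ and 1617, 1718, 1599, 1686 and 1652 in Ppef2-/- libraries, and the genotypes overlapped in both genes. Per kb of exons, Zfp385a, an RNA-binding cofactor of p53, was highest with 345 normalized counts per kb, followed by Zfp366 with 260. These 2 members were in the highest 10% of all genes per kb. By normalized count, 5 members lay in the highest 10%, Zfp106, Zfp366, Zfp516, Zfp710 and Zfp207, with Zfp207 just inside.

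Zfp516, a transcription factor known from brown fat, had a mean of 1274 ± 37.7 normalized counts in Ppef2+/+ and 1199 ± 37.7 in Ppef2-/- libraries (SD, n = 5 each). It was lower in Ppef2-/- cells in all 5 sorts, by 0.98 to 174 normalized counts, and the log2 difference was -0.09 ± 0.05 (SE). Zfp207 encodes BuGZ, a spindle and kinetochore protein, and was also lower in all 5 sorts, with 1020 ± 36.4 against 942 ± 36.4 normalized counts and a log2 difference of -0.11 ± 0.06 (SE). Its 95% interval ran from -0.23 to 0.00 and the unadjusted p was 0.056, by limma with the sort as a block. Without sort 3 the difference of Zfp207 was -0.08, and without sort 2 that of Zfp516 was -0.06. Zfp710 had 1109 ± 29.2 against 1092 ± 29.2 normalized counts and was higher in Ppef2-/- cells in 1 of 5 sorts.

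The next members by level had functions across transcription, RNA and protein turnover. Zfp62 had 860 ± 29.9 against 873 ± 29.9 and Zfp871, a KRAB gene, 845 ± 36.3 against 830 ± 36.3 normalized counts in Ppef2+/+ and Ppef2-/- libraries (SD, n = 5 each). Zfp217, part of corepressor complexes, had 809 ± 16.8 against 858 ± 16.8, and Zfp91, an E3 ubiquitin ligase of the non-canonical NF-kappaB pathway, 777 ± 17.8 against 825 ± 17.8. Both were higher in 4 of 5 sorts, with log2 differences of 0.08 ± 0.06 and 0.09 ± 0.06 (SE). Zfp638, a nucleic acid-binding silencing factor, had 754 ± 25.7 against 762 ± 25.7. Zfp445, a KRAB gene that keeps imprints, had 665 ± 23.0 against 703 ± 23.0 and was higher in 4 of 5 sorts. Zfp385a had 896 ± 28.7 against 841 ± 28.7 and was lower in 4 of 5 sorts. Per kb, the KRAB gene Zfp869 on chromosome 8 joined the 8 highest, with 144 normalized counts per kb and 227 ± 15.1 against 230 ± 15.1 normalized counts. In none of these members was the adjusted p of the genotype difference under 0.99.

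**Figure D2:**
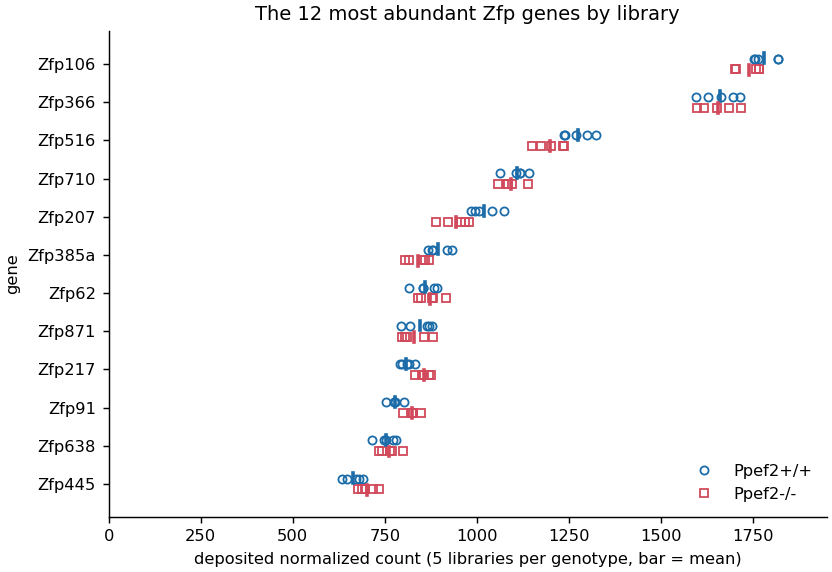
Deposited normalized count (horizontal axis) of the 12 most abundant members in each of the 5 Ppef2+/+ libraries (circles) and 5 Ppef2-/- libraries (squares), with the means as vertical bars. Zfp106 and Zfp366 lie between 1596 and 1819, and Zfp207 and Zfp516 are the genes whose symbols do not overlap. In deposited values, where both libraries of a sort have 1 total, this follows from 5 differences of 1 sign. Over all genes, 6.18% had 5 sorts in 1 direction.

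The 5 members with the lowest means, Zfp91Cntf, Zfp69, Zfp459, Zfp939 and Zfp458, were at 8.66 to 10.3 normalized counts. Zfp91Cntf had 10.1 ± 7.64 in Ppef2+/+ and 7.24 ± 4.00 in Ppef2-/- libraries, with 36 and 28 reads summed over 5 libraries, and it overlaps Zfp91, so that its reads cannot be told from those of Zfp91 in the shared exons. Zfp69 had 36 and 60 reads, Zfp459 36 and 81, the pseudogene Zfp939 31 and 75, and Zfp458 45 and 66. These sums are not scaled for depth, and the Ppef2-/- library was the deeper one in most sorts. In normalized counts, the ratio of the Ppef2-/- mean to the Ppef2+/+ mean was 1.16 for Zfp69 and 1.31 for Zfp459. It was 1.46 for Zfp939 and 0.985 for Zfp458. All members had passed the filter of the study, a mean of at least 10 in 1 genotype, and 9 of them reached it in 1 genotype alone, which favours a difference in these 9. Zfp772, described below, is 1 of these 9, as are Zfp383 and 4 of the 5 lowest members, without Zfp458. RefSeq lists 416 symbols of this form, so that other Zfp genes are not part of the table.

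Zfp genes with a known silencing target were present at modest levels. They were chosen for this after their values had been seen. Zfp809, which silences murine leukemia virus, had a mean of 94.7 normalized counts and a log2 difference of 0.01. The imprint regulator Zfp57 had 36.3 and -0.23, Zfp568, a silencer of a placental Igf2 promoter, 144.8 and -0.12, and Zfp932, a silencer of endogenous retroviruses that shares 37.0% of its 50-base words with other genes, 49.0 and -0.21. The lowest unadjusted p of the 4, in limma's fit described next, was 0.26.

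To see whether loss of Ppef2 went along with other levels of Zfp genes, Ppef2-/- was compared with Ppef2+/+ within the sorts. No member differed with an adjusted p under 0.05 in limma's fit with the sort as a block, where 1 of all 10767 genes, Ppef2, did (0.00929%). The lowest adjusted p of a member was 0.995. At an unadjusted p under 0.05, 4 members were higher in Ppef2-/- cells (1.47%, compared to 2.3% of all genes) and 2 were lower (0.735%, compared to 1.99%). Both shares were below those of all genes. Without the block, which leaves a residual that is too small here because the sort means were removed, the counts were 30 higher (11%, compared to 9.2% of all genes) and 25 lower (9.19%, compared to 8.33%). By limma's voom on the reads, also blocked, 3 members were higher and 3 lower at this level and 0 passed the adjustment.

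The members' differences centred on 0. The median log2 difference was 0.011 in members and 0.00089 in all genes. Above 0 were 147 members and below 125 (54.0% above 0, compared to 50.5% of all genes). The range was -0.73 for Zfp54 to 0.97 for Zfp772. No member differed by more than 2-fold on this scale, compared to 40 of all genes, and 4 members (1.47%) differed by more than 1.5-fold, compared to 1.65% of all genes. These 4 were Zfp772, Zfp54, Zfp867 and Zfp383, and all of them had a mean under 15 normalized counts. The 95% interval lay within a 2-fold change in either direction for 248 of 272 members (91.2%, compared to 95.2% of all genes). For most members a change of that size thus lay outside the interval, but for a smaller share than among all genes. An interval within 0.5 on the log2 scale was reached by 144 members, or 52.9%, compared to 76.0% of all genes. Precision followed level, with a median SE of 0.32 in the 67 members under 30 normalized counts and of 0.06 in the 29 members of 300 or more, close to 0.31 and 0.07 for all genes in these ranges.

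**Figure D3:**
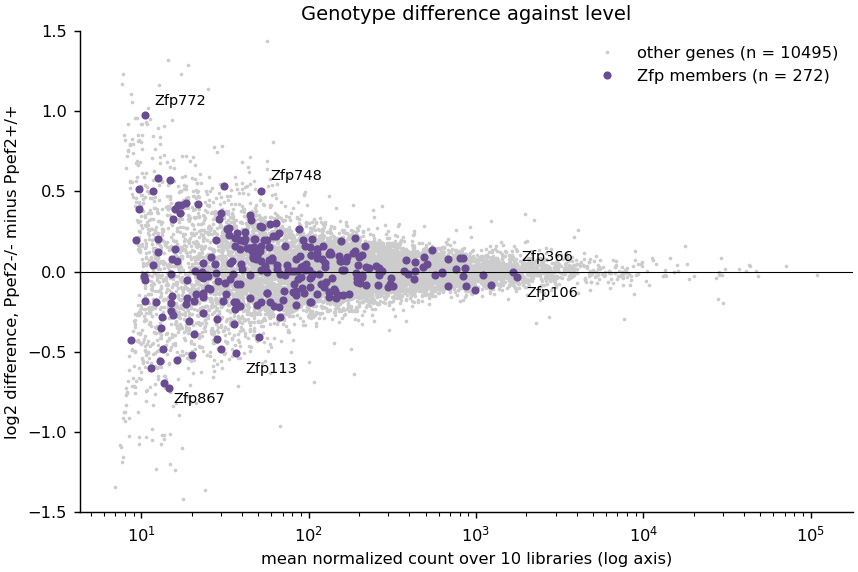
Log2 difference of Ppef2-/- minus Ppef2+/+ from the blocked fit (vertical axis) against the mean normalized count over 10 libraries (horizontal log axis), for 272 members and 10495 other genes. Members lie between -0.73 and 0.97 and narrow with level like the other genes, and 8 other genes lie beyond the vertical axis.

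The members as a group did not move in the same direction in every sort. In sort 1 the median log2 ratio of read-scale values, Ppef2-/- over Ppef2+/+, was -0.05 in 267 members and -0.01 in all resolved genes. There, 116 members were higher and 151 lower (43.4% higher, compared to 49.0% of resolved genes). In sort 2 the medians were 0.05 and 0.00, with 150 members higher (56.2%, compared to 49.9%). In sort 3 both were 0.01, with 136 members higher (50.9%, compared to 51.3%). In sort 4 they were -0.02 and 0.00, with 127 members higher (47.6%, compared to 50.4%). Sort 5 had the highest median, 0.08 compared to 0.01, with 168 members higher and 99 lower (62.9% higher, compared to 51.2%). The sign of the members' median was positive in 3 sorts and negative in 2. The depth ratio was lowest in sort 5 and highest in sort 1, and the part of depth in these medians was not tested.

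**Figure D4:**
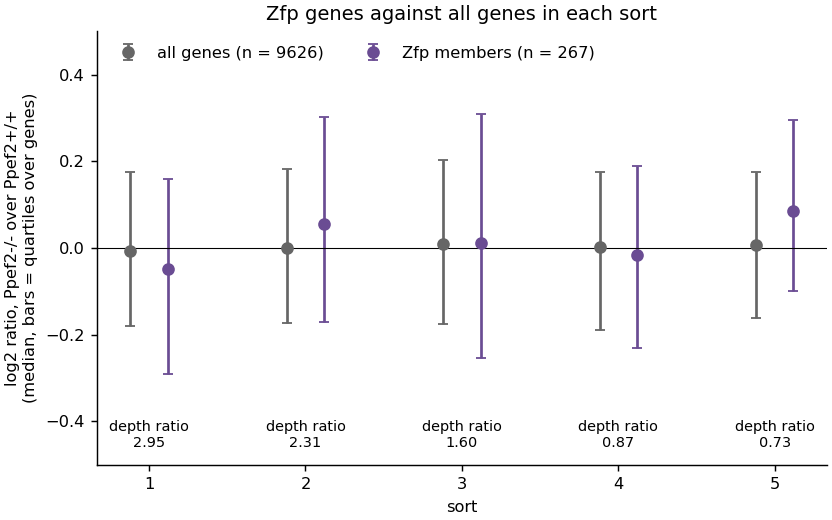
Median log2 ratio of Ppef2-/- over Ppef2+/+ read-scale values in each sort (vertical axis), with quartiles over genes as bars, for 267 members and 9626 genes, and the depth ratio of both libraries under each sort. The members' medians run from -0.05 in sort 1 to 0.08 in sort 5 and each pair of quartiles spans 0.

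Summed up, members took 1.44 to 1.64% of the resolved reads of the Ppef2+/+ libraries and 1.43 to 1.63% of those of the Ppef2-/- libraries. In sort 1 the shares were 1.64% (exact 95% interval 1.62 to 1.66) and 1.60% (1.59 to 1.61), in sort 2 1.59% and 1.63%, in sort 3 1.44% and 1.45%, in sort 4 1.46% and 1.43%, and in sort 5 1.5% and 1.56%. The genotypes overlapped, and the sorts differed more from each other than the genotypes within a sort. Intervals cover counting error only, since the reads carried no molecular identifiers. The resolved genes leave out genes with values of 1000 or more, among them 5 members. Of the normalized counts of all genes, members took 0.68 to 0.77% in Ppef2+/+ and 0.67 to 0.76% in Ppef2-/- libraries.

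In all 5 sorts, 10 members were higher in Ppef2-/- cells (3.68%, compared to 3.26% of all genes) and 13 were lower (4.78%, compared to 2.92%). A sort-wise exact permutation test of 5 sorts cannot give a two-sided p below 0.0625, and these 23 members had this value. Among the 10 higher members 2 had a KRAB box, and among the 13 lower members 7 had one. Beside those described below, the higher members were Zfp143, an activator of small nuclear RNA genes, the SUMO ligase Zfp451, Zfp330 and Zfp280b, with log2 differences of 0.10 to 0.20. The lower ones were Zfp444, Zfp229, Zfp277, Zfp619 and Zfp335 with -0.22 to -0.08, and Zfp207 and Zfp516 from the most abundant members.

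Zfp772, a KRAB gene with 8 fingers on chromosome 7 from 7202117 to 7209998, had the highest log2 difference of all members. It had passed the filter of the study only through Ppef2-/-, where it is high, with a mean of 6.93 in Ppef2+/+ and 14.2 in Ppef2-/- libraries. Its reads in sorts 1 to 5 were 4, 2, 6, 7 and 11 in Ppef2+/+ and 23, 25, 12, 17 and 12 in Ppef2-/- libraries. On the read scale this made 5.48, 2.73, 9.02, 6.47 and 11 against 10.7, 14.8, 11.2, 18.0 and 16.4 normalized counts. Ppef2-/- was the higher library in every sort, and 1 Ppef2-/- library (10.7, sort 1) lay just below the highest Ppef2+/+ library (11, sort 5). Given the depths, the ratio of reads was 5.42 in sort 2 (exact 95% interval 1.35 to 47.2) and 2.78 in sort 4 (1.09 to 7.92). In sorts 1, 3 and 5 it was 1.95, 1.25 and 1.5, with intervals that include 1. The log2 difference of the deposited values was 0.97 ± 0.37 (SE, 95% interval 0.19 to 1.76), with an unadjusted p of 0.017 and an adjusted p of 0.995 in limma's blocked fit. The adjusted p was 0.059 without the block. Zfp772 was the 1 member that passed the thresholds of the study, which ask for a 2-fold ratio of genotype means and p below 0.01 in the unblocked model (0.214% of all genes). Its ratio of means was 2.05, in a gene that entered the table through the higher genotype alone. With the p of the blocked fit it did not pass.

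The other 5 members with the highest differences among those higher in all sorts were Zfp553, Zfp768, Zfp51, Zfp446 and Zfp639, with log2 differences between 0.26 and 0.35 and unadjusted p of 0.067 to 0.21 in the blocked fit. Zfp553 and Zfp768 lie in a group of 10 members on chromosome 7 and both had their highest difference in sort 5. Zfp553 differed by 34.5 normalized counts in sort 5 and by 0.92 to 14.2 in the others, and without sort 5 its log2 difference was 0.15 instead of 0.35. On the read scale, Zfp768 was at 46.5, 43.6, 34.6, 38.8 and 37.8 in Ppef2+/+ and 48.3, 63.2, 42.2, 40.2 and 58.9 in Ppef2-/- libraries, and the genotypes overlapped. Zfp51, a KRAB gene with 19 fingers, was at 79.4, 50.4, 40.6, 43.4 and 50.8 against 84.5, 63.8, 61.8, 51.8 and 64.4, with differences of 5.12 to 21.2. Its level in sort 1 was above that of the other sorts in both genotypes. Zfp446, a neighbour of Trim28 on chromosome 7, was at 29.6 ± 2.05 against 35.7 ± 2.05 deposited normalized counts (SD, n = 5 each). On the read scale Zfp446 ran from 19.5 to 44.8 in Ppef2+/+ and from 25.4 to 47.9 in Ppef2-/- libraries, and the genotypes overlapped. Zfp639 was at 80.2 ± 7.96 against 96.3 ± 7.96, and its difference ran from 0.050 in sort 4, where both libraries were at 96 on the read scale, to 40.2 in sort 1. Without sort 1 its log2 difference was 0.16 instead of 0.26.

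Of the members lower in all sorts, Zfp867 and Zfp113 had the largest differences. Zfp867, a KRAB gene with 10 fingers on chromosome 11 from 59461197 to 59472474, had 15, 14, 9, 16 and 18 reads in Ppef2+/+ and 24, 27, 8, 8 and 6 in Ppef2-/- libraries. Its read-scale values were 20.5, 19.1, 13.5, 14.8 and 17.9 against 11.1, 16, 7.49, 8.45 and 8.22 normalized counts. The genotypes overlapped through the Ppef2-/- library of sort 2. The log2 difference was -0.70 ± 0.31 (SE, 95% interval -1.35 to -0.05), with an unadjusted p of 0.037 in the blocked fit.

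Zfp113 is a KRAB gene with 8 fingers on chromosome 5 from 138139702 to 138155744. It had 44, 35, 24, 37 and 40 reads in Ppef2+/+ and 82, 60, 25, 21 and 24 in Ppef2-/- libraries, or 60.2, 47.7, 36.1, 34.2 and 39.8 against 38.1, 35.5, 23.4, 22.2 and 32.9 normalized counts on the read scale. Ppef2-/- was lower in each sort by 6.97 to 22.2 normalized counts, while sort 1 and sort 2 were the highest in both genotypes, so that the genotypes overlapped across sorts. The log2 difference was -0.51 ± 0.19 (SE, 95% interval -0.92 to -0.10), with an unadjusted p of 0.017 in the blocked fit. Zfp113 and Zfp867 were the 2 members with an adjusted p under 0.05 without the block, 0.039 and 0.049, where 0.957% of all genes passed, and both had 0.995 with it. Neither differed by more than 2-fold.

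The other 4 were Zfp872, Zfp456, Zfp933 and Zfp46, with log2 differences of -0.48, -0.42, -0.41 and -0.28 and unadjusted p of 0.051 to 0.14. Zfp872 rested on 66 reads in Ppef2+/+ and 68 in Ppef2-/- libraries, at a depth that was higher in Ppef2-/-. Zfp456, in the large group on chromosome 13, shared 18.1% of its 50-base words with other genes, and its log2 difference was -0.27 without sort 1. Zfp933 differed by 45.3 normalized counts in sort 2, where its Ppef2+/+ library was at 101 on the read scale, and by 1.49 to 8.66 in the other sorts. Without sort 2 its log2 difference was -0.17 instead of -0.41, with an unadjusted p of 0.36 by limma. Zfp46 was at 74.3 ± 5.35 against 61.0 ± 5.35 deposited normalized counts (SD, n = 5 each), and lower by 1.48 to 25.3.

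**Figure D5:**
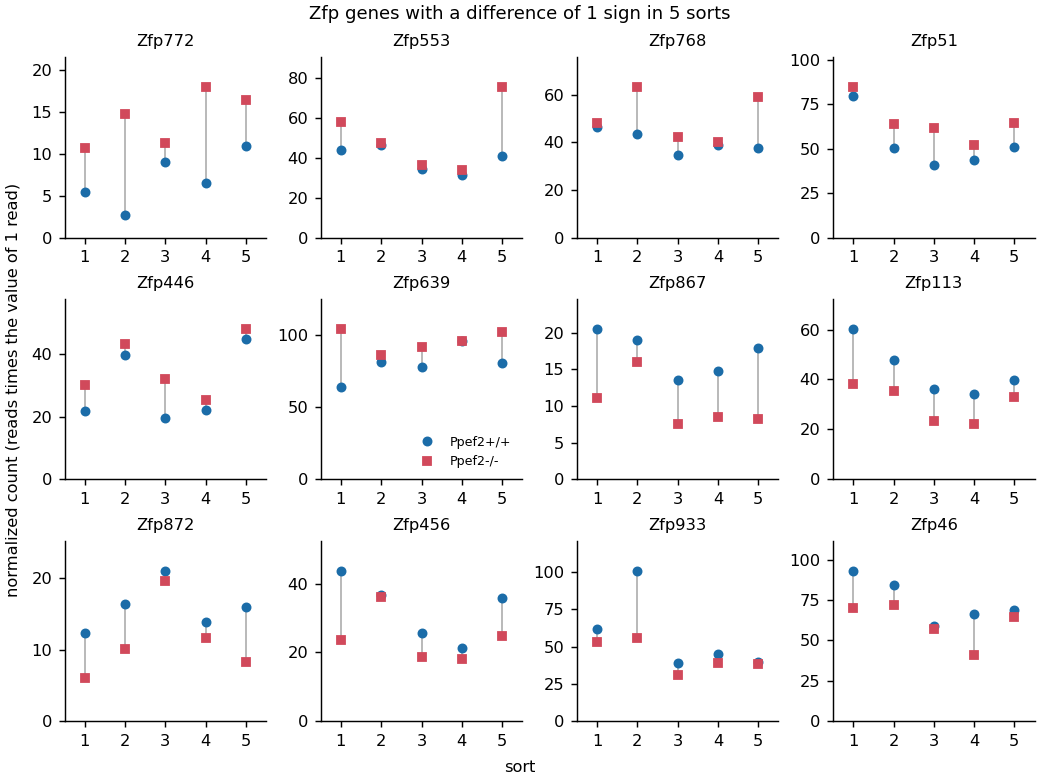
Read-scale normalized count (vertical axes, from 0) of the 12 members with the largest differences of 1 sign in 5 sorts, by sort (horizontal axes), with Ppef2+/+ as circles and Ppef2-/- as squares joined within a sort. Levels move between sorts by more than the genotypes differ in genes such as Zfp446, and Zfp772 runs from 2.73 to 18.0.

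At an unadjusted p under 0.05 stood also Zfp748, Zfp110 and Zfp862-ps, each higher in 4 of 5 sorts. Zfp748, a KRAB gene with 23 fingers, differed by 19.3, 24, 12.3, -3.95 and 38.5 normalized counts in sorts 1 to 5. Its log2 difference was 0.50 ± 0.18 (SE), and its unadjusted p of 0.013 by limma was the lowest of the members. Zfp110 encodes a protein that binds the neurotrophin receptor p75. It differed by -2.32, 56.3, 45.1, 16.1 and 24.8 normalized counts, at means of 176 ± 11.6 and 204 ± 11.6 (SD, n = 5 each). The pseudogene Zfp862-ps had means of 25.7 ± 6.32 and 37.0 ± 6.32 normalized counts. These 3 were named for this p after their values had been seen.

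Neighbours on a chromosome were compared as a description. Of the 19 groups of at least 4 members, 13 had a median log2 difference above 0 and 6 below. Of all genes, 50.5% were above 0 and 3.26% were higher in all 5 sorts, and of all members 54.0% and 3.68%. The groups named here were picked from these 19, and no group was tested. In the group of 10 members on chromosome 6 from 47835661 to 48623227, 9 were above 0, with a median log2 difference of 0.11. The group of 10 on chromosome 7 from 127233061 to 127885996 had 7 above 0 and a median of 0.20, and 2 of its members were higher in all 5 sorts. The 20 members on chromosome 13 had a median of 0.13 with 13 above 0. In the 17 members on chromosome 17 from 21008903 to 23564238 the median was -0.02, and in 11 others from 32765496 to 33631779 it was -0.03. The lowest medians were -0.14 in a group of 5 on chromosome 7 from 6131491 to 7209998, with 1 above 0, and -0.14 in a group of 5 on chromosome 9 from 22055411 to 22307648, with 2 above 0. On chromosome 15, a group of 5 with 1 above 0 had a median of -0.08. Members with a neighbour had a median of 0.02 and members alone of 0.01. The near-identical pair shown above had Zfp955a at 0.20 and Zfp955b at -0.48, both uncertain because of shared reads, and neither passed the test (unadjusted p of 0.31 and 0.052 by limma).

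KRAB boxes and fingers did not separate the differences. The median log2 difference was 0.01 both in the 146 KRAB members and in the 122 others, and it was 0.01, 0.00, -0.01 and 0.04 over the classes of at most 4, 5 to 9, 10 to 14 and 15 or more fingers. All members with a protein that had an unadjusted p under 0.05 in the blocked fit were KRAB members, 3 higher (2.05% of KRAB members, compared to 2.3% of all genes) and 2 lower (1.37%, compared to 1.99%), so that neither share was above that of all genes.

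The partners of KRAB proteins were far more abundant than the KRAB genes. Of 36 gene symbols listed for this silencing pathway, 34 were in the table, with a median of 76.5 normalized counts per kb. Trim28 had 1225 ± 40.3 normalized counts in Ppef2+/+ and 1208 ± 40.3 in Ppef2-/- libraries, and Setdb1 445 ± 23.6 and 419 ± 23.6 (SD, n = 5 each). Their log2 differences were -0.02 ± 0.05 and -0.09 ± 0.07 (SE). No gene of the list passed the adjusted threshold, and Hells, a chromatin remodeller needed for DNA methylation, was the 1 gene with an unadjusted p under 0.05. This made 2.94% of the list higher at this p, beside 2.3% of all genes, and 0 lower, beside 1.99%. Hells was at 329 ± 26.0 against 373 ± 26.0 normalized counts, higher in 3 of 5 sorts. The log2 difference was 0.18 ± 0.08 (SE), and the unadjusted p was 0.036 by limma. The median of the list was -0.01, and 0 of its genes kept 1 sign over 5 sorts, beside 6.18% of all genes. The 95% intervals of all 34 lay within a 2-fold change, as did those of 95.2% of all genes. With 34 genes such shares cannot be read closely.

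In the other zinc finger families, too, 0 genes passed the adjustment. At an unadjusted p under 0.05 in the blocked fit 1 of 38 Zbtb genes was higher and 0 lower, 1 of 17 Zscan and Zkscan genes was higher and 1 lower, and 1 of 15 Zc3h genes was higher and 2 lower, beside 2.3% and 1.99% of all genes. These lists are too short to read such shares closely.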

How the data were processed

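Messenger RNA of sorted CD8+ cDC1 was sequenced in 10 libraries, 5 per genotype. Libraries were grouped by the genotype in the labels, and the replicate number was taken as the sort. The authors aligned 50-base single-end reads to mm10 (HISAT in the methods, TopHat2 2.0.3 in the submitters' processing notes), counted reads per RefSeq gene in Partek 6.6 without a stated use of strand, normalized counts with DESeq2 in R 3.0.2, set values under 1 to 1 and removed genes with both genotype means under 10. What the authors deposited is this signal of normalized counts, and raw counts were not used here. A step that equalized the sums of the sorts is not given in the sources used here. The sums differed by at most 6.28e-06 of their size over the sorts in 10721 genes without a value at 1.

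Genotypes were compared by limma 3.58.1 under R 4.3.3 (lmFit, then eBayes with a mean-variance trend) on log2(normalized count + 1), two-sided, with the sort as a block and Benjamini-Hochberg adjustment over 10767 genes. Log2 differences are on this scale and understate changes of low genes. The labels give the sort that the libraries share. Within the deposited values the libraries of a sort mirror each other, and on the read scale deviations of libraries of the same sort correlated with r = 0.00 to 0.29, while the highest r with a library of another sort was 0.11 to 0.32 and above the former in 4 of 5 sorts. The block thus rests on the replicate numbers and on the deposited values, where the pairs of a sort have 1 total, and not on these correlations. The one-way model of the study, without a block, was an alternative, since its residual does not count the sort means that were removed. Further settings were pseudocounts of 0.1 and 10, a minimum mean of 20, scaling by the upper quartile or the total, no trend, no log, each sort left out, limma's voom on reads and the sort means put back.

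Whole reads were resolved from the steps in the values of both libraries of a sort, for 9626 genes. Reads were sought only for genes with all values under 1000, a limit set for the method, which left out 5 members. For 150 low genes, 100% had 1 set of reads with the chosen steps, compared to 8% with the next best. Fits and steps were tested on simulated data. Read shares have exact Clopper-Pearson intervals (scipy 1.17.1). Gene models were from GENCODE M21, and 50-base words were compared between transcripts of different genes. All 10 columns were used, and 0 columns of other samples were present.

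Members and lists were chosen with earlier results of these data known. Named are the 12 highest by mean and 8 highest per kb, the 5 lowest, the 6 largest rises and 6 largest falls among members of 1 sign in 5 sorts, members with an adjusted p under 0.05 with or without the block, Zfp772, Trim28, Setdb1, pathway genes with an unadjusted p under 0.05, and Ppef2. Others were named after their values were seen. P-values of the blocked fit rest on the spread of the differences between pools of mice within 5 sorts, moderated over genes. This spread includes counting error and leaves out the spread between sorts. One of the lists of markers of other cells is not reported here.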

Additional observations from a re-analysis of the deposited data

Results flagged for a closer look

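Of 68 sets of 5 libraries of the named genes, 3 held a library far from the other 4, by Dixon's test at 95%, and chance gives about 1 in 20. In Zfp871 the Ppef2-/- library of sort 2 was at 785 normalized counts on the read scale, with the others between 833 and 850. In Zfp869 the Ppef2-/- library of sort 4 was at 261, with the others between 220 and 224. In Zfp51 the Ppef2+/+ library of sort 1 was at 79.4, with the others between 40.6 and 50.8, and the Ppef2-/- library of this sort was at 84.5.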

How the results depend on the processing

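Without the replicate block, 2 members passed an adjusted p under 0.05, and 30 were higher and 25 lower at an unadjusted p under 0.05, against 0, 4 and 2 with it. Of all genes, 0.957% passed without the block, and 9.2% were higher and 8.33% lower. With the block these shares of all genes were 0.00929%, 2.3% and 1.99%. The sort means had been removed from the values, so that the fit without the block has too small a residual. No other alternative gave an adjusted p under 0.05 to a member. At an unadjusted p under 0.05, eBayes without a trend gave 9 higher and 9 lower members, while lower members numbered 4 with pseudocount 10, 1 with a mean of at least 20, 5 without a log and 4 with the sort means put back and the replicate block. Leaving out a sort gave 1 (sort 5) to 7 (sort 4) higher and 0 (sort 1) to 6 (sort 5) lower members, and, since fewer sorts had to match, 15 to 22 higher and 16 to 22 lower in all sorts. For these other settings no share over all genes is given. The counts thus cannot show whether the members moved more than other genes. The count past the thresholds of the study fell from 1 to 0 with p from the replicate block. The members' median per kb, 36.9% of that of all genes, was 34.8% per kb of the longest transcript and 35.6% in Ppef2+/+ libraries only. Leaving out a sort moved the median log2 difference between -0.01 and 0.04, and it was 0.02 with the sort means put back.

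Differences near 0 changed sign when a sort was left out, with ranges of -0.032 to 0.020 for Zfp366, -0.014 to 0.050 for Zfp62, -0.070 to 0.0021 for Zfp871, -0.021 to 0.041 for Zfp638, -0.019 to 0.096 for Zfp869, -0.92 to 0.37 for Zfp91Cntf, -0.11 to 0.57 for Zfp69, -0.24 to 0.26 for Zfp458 and -0.055 to 0.011 for Trim28. Zfp458 was at 0.076 with the sort means put back. Zfp772 kept its direction in every fit on the log2 scale, from 0.52 to 1.15, with unadjusted p up to 0.068, as did Zfp867 from -0.79 to -0.43 with unadjusted p up to 0.098 and Zfp113 from -0.57 to -0.41 with unadjusted p up to 0.067. The adjusted p of Ppef2 was 0.865 when eBayes was run without a trend. The cause of these changes was not tested. Low members are limited by depth, with 2 to 25 reads per library in Zfp772. Differences without a log have no median on the log2 scale, and none is given.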
